A study of Mus musculus with 16 samples.

Results

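The response of resting mouse mast cells to an agonist antibody against TIM-3 was compared between 2 h and 16 h of exposure, on 8 of the 16 two-colour arrays of the series. The arrays were chosen by their labels: 4 hold cells treated for 2 h and 4 hold cells treated for 16 h, in both cases without IgE or antigen. Bone marrow cells had been cultured for more than 4 weeks in 10% serum, interleukin 3 (5 ng/ml) and stem cell factor (40 ng/ml), and were more than 90% pure. On every array the Cy5 channel carried RNA of cells given the polyclonal goat anti-mouse TIM-3 antibody at 15 ug/ml. The Cy3 channel carried RNA of cells given unspecific goat IgG at 15 ug/ml for the same time. The other 8 arrays hold cells loaded with IgE (5 ug/ml for 1 h) and given the antigen DNP-HSA at 100 ng/ml, called activated below, again at 2 h and 16 h with 4 arrays each. They enter here as the contrast for the change over time and in the estimate of the spread. All cells were grown in vitro, and polyclonal antibody and control IgG both come from goat.

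TIM-3, encoded by Havcr2, is a cell-surface receptor of T cells, macrophages, dendritic cells and mast cells that lacks an enzyme domain and signals through tyrosines of its short cytoplasmic tail. Its known ligands include galectin-9 and phosphatidylserine. Mast cells are tissue-resident cells that carry the IgE receptor and Kit, store proteases and amines in granules, and make cytokines and chemokines when they are stimulated. Immediate early genes such as those of the Egr, Fos and Nr4a families are transcribed within minutes of a stimulus and usually only briefly, and chemokine genes often follow them.

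The measurement was the log2 ratio of Cy5 to Cy3 within an array, so a value above 0 is a higher signal with anti-TIM-3 than with IgG. The quantity tested was the mean ratio at 16 h minus the mean ratio at 2 h, for which a negative value means that the ratio was lower at 16 h. The dyes were never exchanged, so the ratio at 1 time holds both the antibody's effect and the gene's own dye bias, which it does not separate. Such a bias, if constant from array to array, drops out of the difference between the times. A gene was called when limma's moderated test, fitted over all 16 arrays and 17078 genes, gave a Benjamini-Hochberg adjusted p under 0.05. Whether the replicates are separate cultures or animals is not stated in the labels, and p-values therefore reflect only the variation among these samples, possibly technical. In such bulk RNA, fewer cells of a type and less RNA per cell cannot be told apart.

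Between 53.7% and 62.1% of probes were well above background in Cy3 on the 8 arrays and between 54.8% and 67.7% in Cy5, and the number of arrays, 4 a group, limits the precision. The 3 arrays 2 h replicate 3, 16 h replicate 1 and 16 h replicate 3 stood apart in part, by low correlations with 2 h replicates 1, 2 or 4. Across genes, the ratios of 2 h replicate 3 correlated at 0.517 and 0.643 with 16 h replicates 1 and 3, and these last correlated at 0.792 with each other. The ratios of 16 h replicates 1 and 3 correlated between -0.190 and -0.0139 with 2 h replicates 1 and 2, whereas the other 5 arrays correlated between 0.322 and 0.715 among themselves. The 3 arrays also correlated with 16 h replicates 2 and 4, 2 h replicate 3 at 0.558 and 0.522 and 16 h replicates 1 and 3 at 0.415 to 0.476. All 12 mast cell markers examined were well above background on all 8 arrays, Fcer1a, Kit and Cma1 among them. Of the other lineages, 21 of 23 macrophage and dendritic cell markers were above background on all 8 arrays, whereas 5 of 14 neutrophil markers (Camp, Elane, Lcn2, Ngp and Retnlg) and 3 of 9 fibroblast markers (Dcn, Lum and Pdgfra) were never above it.

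The anti-TIM-3 ratio of 49 genes differed between 2 h and 16 h in resting cells, or 0.287% of those tested. It was lower at 16 h for 34 genes (0.199% of genes tested) and higher for 15 (0.0878%). The largest of these differences belonged to chemokine genes and to the transcription factor genes Egr3 and Nr4a1. Genes of DNA replication stood among those that were higher. In all 34 genes of the first group the mean ratio at 2 h was above 0, and in 33 of them it was so on every array at 2 h. At 16 h the mean ratio was below 0 in 20 of the 34 and within 0.2 of 0 in 21. In the second group 12 of 15 had a mean ratio below 0 at 2 h, and all 15 had one above 0 at 16 h. The differences were moderate, with a median size of 0.47 on the log2 scale among the called genes, against 0.077 over all genes tested. Of the called genes only Egr3, Ccl3 and Ccl4 changed by 2-fold or more, all 3 downward. Before adjustment, limma's p was under 0.05 for 3821 genes (22.4% of those tested), so a gene that was not called cannot be taken as unchanged.

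**Figure D1:**
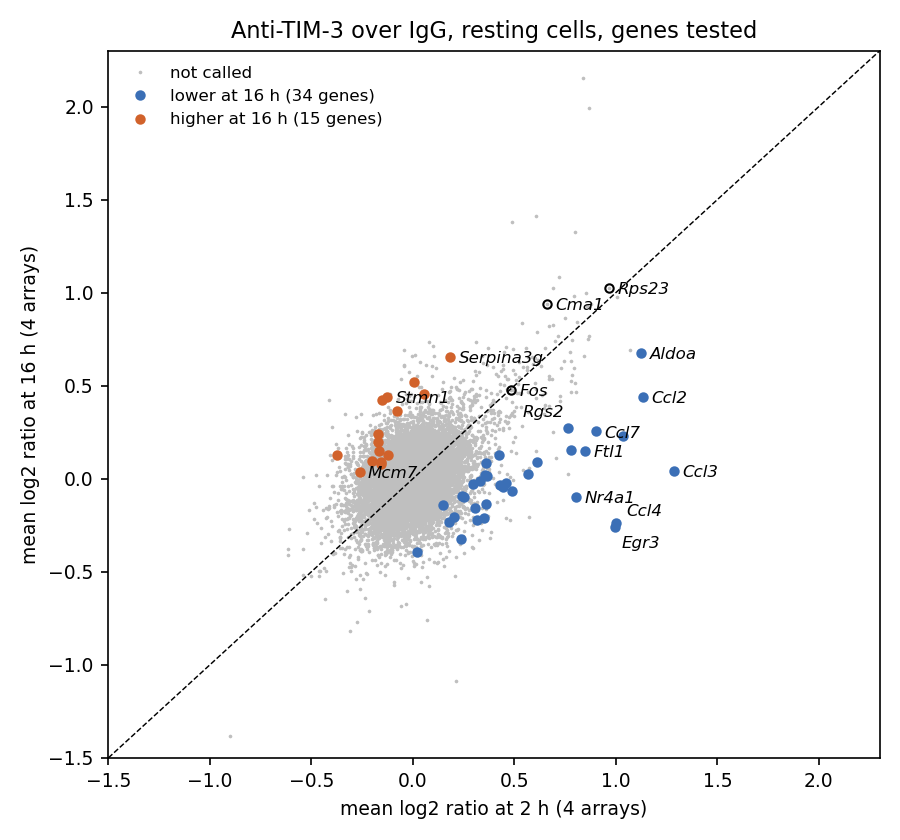
Mean log2 ratio of anti-TIM-3 (Cy5) over IgG (Cy3) at 2 h (horizontal) and at 16 h (vertical) for every gene tested, each over up to 4 arrays of resting cells. Blue points are the 34 genes called lower at 16 h, orange points the 15 called higher, grey points genes not called and open circles named genes not called; on the dashed diagonal the ratio is the same at both times. Ccl3, Ccl4, Egr3 and Nr4a1 lie far to the right and near or below 0 on the vertical axis, while Rps23 and Fos lie next to the diagonal.

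In each of the 49 genes the arrays at 16 h all lay on one side of those at 2 h, which held for 6.41% of all genes tested. With outlier spots left out, Aldoa had only 3 arrays at 16 h and Plek only 3 at 2 h. The direction within each of the 3 slides that carried resting arrays of both times follows from this lack of overlap and is no further check. The number of calls depended on single arrays. Without 2 h replicate 3 the count was 1957 genes, without 16 h replicate 4 it was 634 and without 16 h replicate 2 it was 316. It was 23 without 16 h replicate 1, 24 without 16 h replicate 3 and 25 without 2 h replicate 1. Leaving out an array could not change the direction of the 49 genes, given the lack of overlap. Of them 22 (0.129% of genes tested), 19 lower and 3 higher, passed in all 8 fits without 1 resting array. Without the 3 arrays that stood apart 7 genes were called lower (0.041%) and 0 higher, and Egr3, Ccl3, Ccl4, Nr4a1, Ccl2 and Slc6a9 were 6 of the 7; the other, the ubiquitin-conjugating enzyme gene Ube2d3, was not called with all arrays. In that fit 22 of the 23 named called genes were smaller in size than with all arrays, Mcm3 being larger. A fit of the 8 resting arrays alone, which takes no spread from activated cells, called 8 genes. Ccl4, Mcm7 and Stmn1 were not among them (adjusted p = 0.0745, 0.217 and 0.191).

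**Figure D2:**
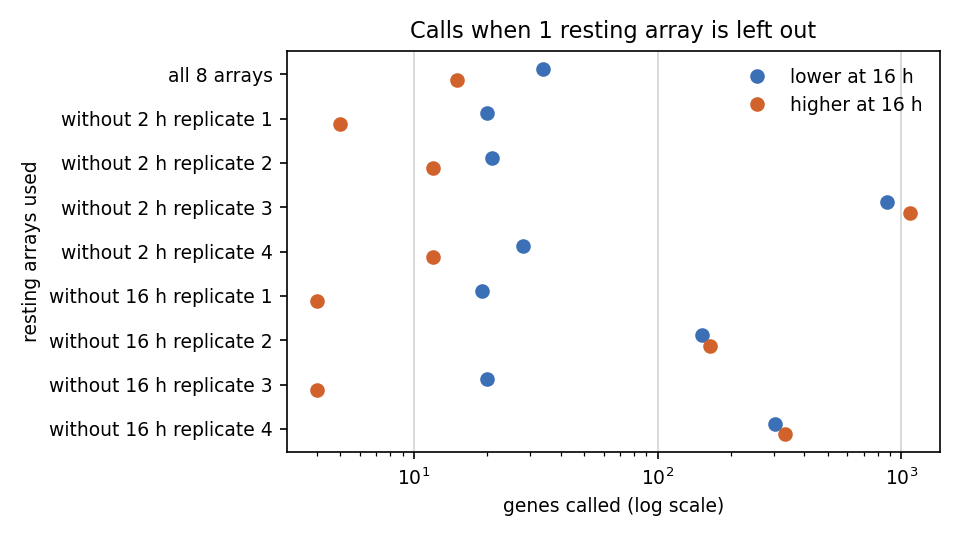
Number of genes called (horizontal, log scale) with all 8 resting arrays and with each of them left out in turn. Blue points count genes lower at 16 h and orange points genes higher at 16 h. The count of lower genes ranges from 19 without 16 h replicate 1 to 872 without 2 h replicate 3, and that of higher genes from 4 to 1085.

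The chemokines, secreted proteins that draw leukocytes along a gradient, supplied 4 of the 34 genes with a lower ratio at 16 h, all of the CC family. Of the 20 chemokine genes measured 4 fell and 0 rose, against 0.199% and 0.0878% of all genes tested. The median difference of the list was -0.057, against 0.0016 over all genes tested. Without the 3 arrays that stood apart 3 passed, at a median of -0.024. Ccl3, which encodes an attractant of monocytes and other leukocytes, had ratios of 1.22, 1.44, 1.15 and 1.32 on the 4 arrays at 2 h and of -0.12, 0.21, -0.07 and 0.16 at 16 h. Every array at 2 h was thus high and every array at 16 h was close to 0. The mean fell by 1.24 ± 0.10 (SE) on the log2 scale, a 2.37-fold smaller ratio (limma, adjusted p = 9.05e-06). Ccl4, encoding a closely related chemokine, had ratios of 0.86, 1.42, 0.60 and 1.13 at 2 h and of -0.59, 0.00, -0.38 and 0.02 at 16 h. The groups did not overlap, although the arrays within each spread more widely than for Ccl3, and the mean fell by 1.24 ± 0.17 (adjusted p = 0.0038).

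Ccl2, the monocyte attractant that binds CCR2, had ratios of 1.14, 1.28, 1.00 and 1.11 at 2 h and of 0.35, 0.49, 0.40 and 0.52 at 16 h. It stayed above 0 on all 8 arrays, and its ratio fell by 0.69 ± 0.07 (adjusted p = 0.00014). Ccl7, encoding a further monocyte attractant, had ratios of 0.95, 0.63, 1.21 and 0.83 at 2 h and of 0.22, 0.21, 0.31 and 0.27 at 16 h. It too was above 0 on all 8 arrays, and its ratio fell by 0.65 ± 0.13 (adjusted p = 0.042). A second Ccl7 probe differed by -0.63. The Ccl7 call was lost without 2 h replicate 1 (adjusted p = 0.151), 2 h replicate 4 (0.0592), 16 h replicate 1 (0.173) or 16 h replicate 3 (0.109). In the mouse annotation GRCm38.p6, Ccl2 and Ccl7 are neighbours among the protein-coding genes of chromosome 11, and so are Ccl3 and Ccl4. Ccl1 had non-overlapping groups and a difference of -0.60 but did not pass (adjusted p = 0.0764). The neutrophil attractants Cxcl1 and Cxcl2 had differences of -0.02 and -0.04 (adjusted p = 0.90 and 0.75).

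Set against markers of basophils, which also express Ccl3, the summed signal of that list of 8 genes was 0.21 to 0.42 higher in Cy5 than in Cy3 at 2 h and 0.0063 to 0.10 higher at 16 h on the log2 scale. That sum includes Ccl3; without it the 7 other genes ranged from -0.12 to 0.14 at 2 h and from -0.024 to 0.13 at 16 h. Ccl3 is itself one of these 8 genes, 7 were above background on all 8 arrays, and Itga2 never was. For the 23 macrophage and dendritic cell markers the summed ratio was 0.017 to 0.091 at 2 h and 0.0063 to 0.29 at 16 h. The part of either cell type in the chemokine ratios was not tested.

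**Figure D3:**
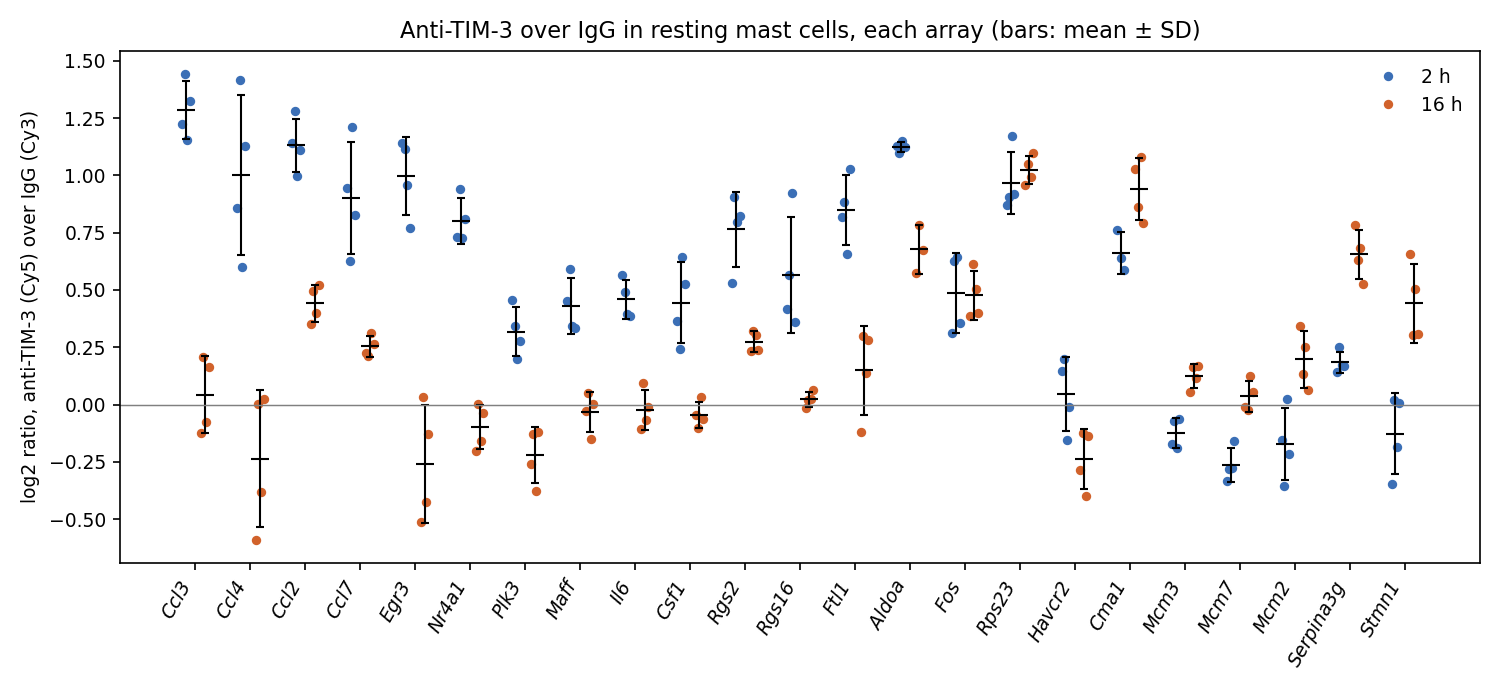
Log2 ratio of anti-TIM-3 over IgG on each resting array at 2 h (blue) and 16 h (orange) for named genes, with the mean and SD of up to 4 arrays as black bars. The genes from Ccl3 to Aldoa were called lower at 16 h and those from Mcm3 to Stmn1 higher, with no overlap between the times, while Fos, Rps23, Havcr2 and Cma1 were not called.

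Among the immediate early genes 3 of 31 measured fell (Egr3, Nr4a1 and Maff) and 0 rose, against 0.199% and 0.0878% of all genes tested. The median difference was -0.15. Differences were negative in 24 members and positive in 7, the highest being 0.59 and not called. In 8 members the arrays at 16 h all lay below those at 2 h (2.89% of all genes tested). Without the 3 arrays that stood apart 2 of the 31 passed, at a median of -0.080. The median ratio of the list was 0.17, 0.19, 0.16 and 0.15 on the arrays at 2 h and 0.02, 0.03, -0.02 and 0.02 on those at 16 h. Every array at 2 h was therefore above every array at 16 h. Egr3, a zinc finger transcription factor, had ratios of 1.14, 1.12, 0.96 and 0.77 at 2 h and of -0.51, 0.03, -0.43 and -0.13 at 16 h. Its ratio fell by 1.26 ± 0.13, 2.39-fold, the largest difference of all called genes (adjusted p = 0.00014). A second Egr3 probe, well above background in Cy5 on 1 of 4 arrays at 2 h and 0 at 16 h, differed by -0.05. Nr4a1, an orphan nuclear receptor, had ratios of 0.73, 0.94, 0.73 and 0.81 at 2 h and of -0.20, 0.00, -0.16 and -0.04 at 16 h. These are tight groups far apart, and the ratio fell by 0.90 ± 0.10 (adjusted p = 0.00019). Maff, a small Maf transcription factor, fell by 0.46 ± 0.09 from 0.43 to -0.03 (adjusted p = 0.048), a call lost without 2 h replicates 1, 2 or 4 or 16 h replicates 1 or 3 (adjusted p up to 0.189).

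Other members of the same families differed in size and in outcome. Egr1 had a mean ratio of 0.61 ± 0.18 (SD, n = 4) at 2 h and 0.15 ± 0.14 at 16 h, with no overlap, and did not pass (difference -0.46, adjusted p = 0.103). It passed in a fit with the replicate number as a block (adjusted p = 0.0374), which called 303 genes. The normalized level of Egr1 was higher at 16 h in both channels, 13.2 and 13.9 in Cy5 and 12.6 and 13.8 in Cy3. Egr2 had a difference of -0.56 (adjusted p = 0.0726), and Nr4a2 and Nr4a3 had -0.16 and -0.10 (adjusted p = 0.257 and 0.429). Fos, a subunit of the AP-1 transcription factor, had ratios of 0.31, 0.63, 0.64 and 0.36 at 2 h and of 0.39, 0.61, 0.50 and 0.40 at 16 h. Its groups overlapped throughout, at means of 0.49 and 0.48, and the 95% interval of its difference ran from -0.24 to 0.23 (adjusted p = 0.975). Whether Fos differed from Egr3 in its time course was not tested.

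Of the 25 cytokine and growth factor genes 2 fell and 0 rose (0.199% and 0.0878% of all genes tested), at a median difference of -0.019. Csf1, the growth factor of macrophages, had ratios of 0.36, 0.24, 0.64 and 0.53 at 2 h and of -0.05, -0.10, 0.03 and -0.06 at 16 h. All arrays at 16 h were close to 0, and the ratio fell by 0.49 ± 0.08 (adjusted p = 0.0070). Il6, encoding interleukin 6, had ratios of 0.57, 0.49, 0.40 and 0.39 at 2 h and of -0.11, 0.09, -0.07 and -0.01 at 16 h. The ratio fell by 0.48 ± 0.08 (adjusted p = 0.018), and the call was lost without 2 h replicate 1 (adjusted p = 0.0943), 2 h replicate 2 (0.0544), 16 h replicate 1 (0.0940) or 16 h replicate 3 (0.0794). Tnf, Il13 and Csf2, cytokines of activated mast cells, had differences of 0.08, -0.08 and -0.13 and did not pass (adjusted p = 0.630, 0.329 and 0.306). The growth factor gene Pdgfa fell by 0.35 ± 0.05 (adjusted p = 0.0027), while a second probe had a difference of -0.14. Fst, encoding the activin-binding protein follistatin, had a mean ratio of 0.61 ± 0.12 (SD, n = 4) at 2 h. It was not well above background in either channel on any array at 16 h, so its 16 h ratio is not a measured level and the change is not given, though it is counted among the 34 lower genes.

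Regulators of signalling were also among the genes whose ratio fell. Rgs2 and Rgs16 speed the inactivation of heterotrimeric G proteins. They were the 2 of 16 genes of the RGS and sphingosine phosphate list that fell, while 0 rose (0.199% and 0.0878% of all genes tested). The median difference of the list was 0.052. Rgs2 had ratios of 0.53, 0.91, 0.80 and 0.82 at 2 h and of 0.23, 0.32, 0.30 and 0.24 at 16 h, above 0 throughout. It fell by 0.49 ± 0.07 (adjusted p = 0.0038), but a second Rgs2 probe, above background on all 8 arrays, differed by -0.09. With the mean of both probes the difference was -0.29 (adjusted p = 0.0553). Rgs16 fell by 0.54 ± 0.10 (adjusted p = 0.019), a call lost without 2 h replicate 2 (0.0511), 16 h replicate 1 (0.0882) or 16 h replicate 3 (0.0751). Plk3, a stress-response kinase, fell by 0.54 ± 0.08 from 0.32 to -0.22 (adjusted p = 0.0071). Trib2, a pseudokinase, fell by 0.32, while a second probe had a difference of -0.19.

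The remaining genes with a lower ratio at 16 h included abundant transcripts of metabolism. Ftl1, the ferritin light chain that stores iron, had ratios of 0.82, 0.88, 0.66 and 1.03 at 2 h and of -0.12, 0.30, 0.14 and 0.28 at 16 h, and fell by 0.70 ± 0.11 (adjusted p = 0.0060). The probe assigned to the near-identical Ftl2-ps fell by 0.81 ± 0.11, and hybridization cannot be assigned to either locus with certainty. Fth1, the heavy chain, differed by -0.03 (adjusted p = 0.840). It had means of 0.63 at 2 h and 0.60 at 16 h. Aldoa, a glycolytic aldolase, was 1 of 26 genes of glycolysis and hypoxia to pass (0.287% of all genes tested). With an outlier spot on 16 h replicate 4 left out, it had ratios of 1.13, 1.10, 1.15 and 1.12 at 2 h and of 0.57, 0.78 and 0.68 on 3 arrays at 16 h. It fell by 0.45 ± 0.06 (adjusted p = 0.0045) and a second probe by 0.30. Slc6a9, a glycine transporter, fell by 0.56 ± 0.07 (adjusted p = 0.0018), and Auts2, a transcriptional regulator, by 0.55 ± 0.09 (adjusted p = 0.0091); a second probe of Auts2 had a difference of -0.15. Calca, which encodes calcitonin and the peptide CGRP, fell by 0.63 ± 0.12 (adjusted p = 0.038), while a second probe had a difference of -0.15. Its call was lost without 2 h replicates 1, 2 or 4 or 16 h replicates 1 or 3 (adjusted p up to 0.18).

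Genes whose ratio was higher at 16 h included Mcm2, Mcm3 and Mcm7, which encode subunits of the helicase that opens DNA for replication. These were the 3 of 28 DNA replication and S phase genes that rose, and 0 fell (0.0878% and 0.199% of all genes tested). The median difference of the list was 0.21. Another 11 of the 28 had non-overlapping groups in the same direction without passing, so 14 in all, against 3.52% of all genes tested. On the single arrays the list's median ratio was -0.19, -0.11, -0.12 and -0.09 at 2 h and 0.10, 0.04, 0.11 and 0.06 at 16 h. It was below 0 on every array at 2 h and above 0 on every array at 16 h. Mcm7 had ratios of -0.33, -0.28, -0.28 and -0.16 at 2 h and of -0.01, -0.02, 0.13 and 0.05 at 16 h, and rose by 0.30 ± 0.05 (adjusted p = 0.0091). Mcm2 had ratios of -0.15, -0.35, 0.03 and -0.21 at 2 h and of 0.34, 0.13, 0.25 and 0.06 at 16 h, and rose by 0.37 ± 0.07 (adjusted p = 0.042). Mcm3 rose by 0.25 ± 0.05, from -0.12 to 0.12 (adjusted p = 0.037), and a second probe by 0.38.

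The helicase subunits did not all pass. Mcm5, Mcm4 and Mcm6 had differences of 0.36, 0.24 and 0.19 (adjusted p = 0.0571, 0.0694 and 0.168). Pcna, the sliding clamp of DNA polymerase, had 0.33 (adjusted p = 0.111) and overlapping groups. The calls of Mcm2 and Mcm3 depended on single arrays. That of Mcm2 was lost without 2 h replicates 1, 2 or 4 or 16 h replicates 1 or 3 (adjusted p up to 0.20), and that of Mcm3 without 2 h replicate 1 (adjusted p = 0.149) or 16 h replicate 3 (0.0978). Without the 3 arrays that stood apart 0 of the 28 genes passed, and the list's median difference was 0.16. In mitosis and cytokinesis 0 of 28 genes passed, against 0.287% of all genes tested, and the median difference was 0.096. In 6 members the arrays at 16 h all lay above those at 2 h (3.52% of all genes tested).

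**Figure D4:**
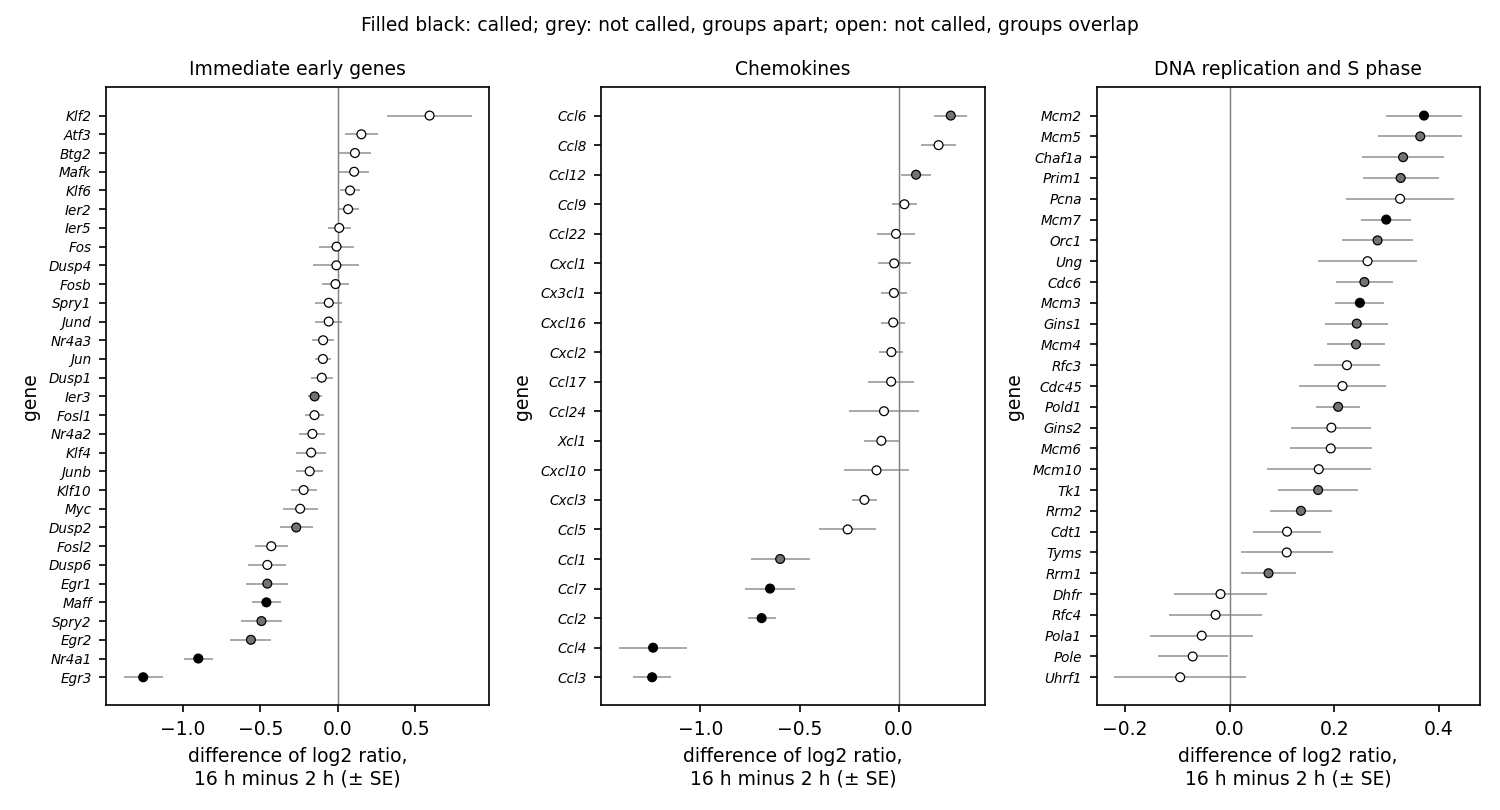
Difference of the log2 ratio, 16 h minus 2 h, with its SE for every measured immediate early gene (31), chemokine (20) and DNA replication or S phase gene (28). Black points were called, grey points were not called but had arrays at 16 h all on one side of those at 2 h, and open points overlapped. Most replication genes lie to the right of 0 within a narrow range, whereas a few chemokines and immediate early genes lie far to the left.

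The other genes that were higher at 16 h had mixed roles. Stmn1, a microtubule-destabilizing protein of dividing cells, had ratios of -0.35, 0.02, -0.19 and 0.01 at 2 h and of 0.66, 0.30, 0.50 and 0.31 at 16 h. It rose by 0.57 ± 0.09 (adjusted p = 0.0060), highest on the 16 h replicates 1 and 3, and a second probe by 0.34. Serpina3g, a protease inhibitor of a multigene family whose members the probe may not separate, had ratios of 0.14, 0.25, 0.17 and 0.17 at 2 h and of 0.78, 0.63, 0.68 and 0.53 at 16 h. It was above 0 at both times and rose by 0.47 ± 0.07 (adjusted p = 0.0048). Prnp, the prion protein gene, rose by 0.51 ± 0.09 (adjusted p = 0.020), Donson, a replication fork factor, by 0.44 ± 0.09 (adjusted p = 0.042) and H1f1, a linker histone, by 0.40 ± 0.07 (adjusted p = 0.016). These calls depended on single arrays. That of Prnp was lost without 2 h replicates 1, 2 or 4 or 16 h replicates 1 or 3 (adjusted p up to 0.0988), that of Donson without 2 h replicates 1 or 4 or 16 h replicates 1 or 3 (up to 0.20), and that of H1f1 without 16 h replicate 1 (0.0867).

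Havcr2, the gene of the antibody's target, had ratios of 0.15, 0.20, -0.16 and -0.01 at 2 h and of -0.29, -0.12, -0.40 and -0.14 at 16 h. The lowest array at 2 h, replicate 3, lay within the range at 16 h, and the difference of -0.28 ± 0.08 did not pass (adjusted p = 0.0983). Of the 8 fits without 1 resting array it passed in 1, that without 2 h replicate 3 (-0.35, adjusted p = 0.0222). That fit called 1957 genes, and the adjusted p of Havcr2 in the others went up to 0.354. Genes of mast cell identity did not pass either. Called were 0 of 19 receptor, 0 of 17 granule protease and mediator and 0 of 16 lineage transcription factor genes. Their median differences were 0.070, 0.069 and -0.10. Over all genes tested 0.287% were called, and 0 calls in lists of this size are near that share. The granule protease gene Cma1 had a mean of 0.66 ± 0.09 (SD, n = 3) at 2 h, where the spot of replicate 1 was left out as an outlier, and of 0.94 ± 0.14 (n = 4) at 16 h (adjusted p = 0.0889). It passed in 1 of the 8 fits, that without 16 h replicate 4 (difference 0.33, adjusted p = 0.0376), which called 634 genes. In the others its adjusted p went up to 0.341. Fcer1a, the alpha chain of the IgE receptor, had 0.80 ± 0.44 (n = 4) and 1.33 ± 0.46 (n = 3, adjusted p = 0.165). It passed in 2 of the 8 fits, without 2 h replicate 3 (0.73, adjusted p = 0.0259) or 16 h replicate 4 (0.79, adjusted p = 0.0457). In the others its adjusted p went up to 0.495. Kit, the stem cell factor receptor, had 0.19 ± 0.19 and 0.39 ± 0.33 (adjusted p = 0.404).

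Some ratios were high at both times. The 75 cytosolic ribosomal protein genes had a median ratio of 0.41 at 2 h and 0.44 at 16 h, and the median difference was 0.021. Of them 0 passed, against 0.287% of all genes tested. Rps23, of the small subunit, had means of 0.97 ± 0.14 and 1.02 ± 0.06 (difference 0.06, 95% interval -0.10 to 0.22, adjusted p = 0.681). Arpc1b, an actin-nucleating subunit, had 0.86 and 1.00, and Tmsb4x, which binds actin monomers, 0.69 and 1.03 (adjusted p = 0.217 and 0.292). Of the NF-kappaB (19 genes), STAT5 and SOCS (14), interferon-stimulated (26), cholesterol and fatty acid synthesis (29) and unfolded protein response (30) lists 0 genes passed. Counts of 0 in lists of this size are near the share of 0.287% over all genes tested.

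The level of each channel, after normalization between arrays, shows on which side the ratio moved, as a description across arrays without a test. The level at 16 h minus that at 2 h was -1.64 in Cy5 and -0.40 in Cy3 for Ccl3, and -1.52 and -0.28 for Ccl4. For Ccl2 it was -0.67 in Cy5, while its Cy3 level was 15.4 on the log2 scale at both times. Ccl3, Ccl4 and Ccl2 thus differed mainly in the anti-TIM-3 channel, whereas Ccl7 was lower at 16 h in both channels without overlap, by -1.82 in Cy5 and -1.18 in Cy3. For Egr3 and Nr4a1 it was the IgG channel: the Cy3 level of Egr3 was 7.50 ± 0.19 at 2 h and 8.54 ± 0.24 at 16 h with no overlap, while its Cy5 level was 8.50 ± 0.17 and 8.28 ± 0.39 with overlap. Nr4a1 had Cy3 levels of 10.4 ± 0.06 and 11.2 ± 0.19 and Cy5 levels of 11.2 ± 0.11 and 11.1 ± 0.24. The replication genes were at a higher level at 16 h in both channels, Mcm7 by 1.74 in Cy5 and by 1.44 in Cy3. Of the 34 genes with a lower ratio at 16 h 32 had a lower Cy5 level and 10 a higher Cy3 level, and of the 15 with a higher ratio 13 had a higher Cy5 level and 11 a higher Cy3 level.

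**Figure D5:**
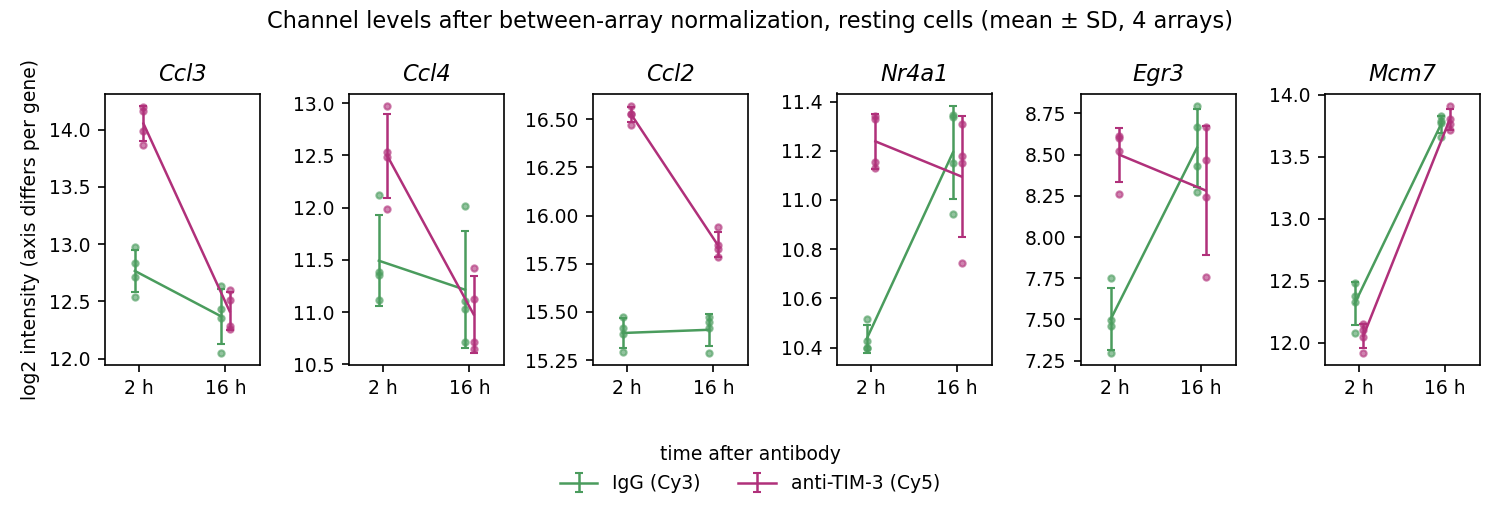
Normalized log2 intensity at 2 h and 16 h in the IgG channel (Cy3, green) and the anti-TIM-3 channel (Cy5, magenta) for 6 genes; points are the 4 arrays, lines join the means and bars are SD, and each panel has its own vertical axis. Cy5 is lower at 16 h for Ccl3, Ccl4 and Ccl2, Cy3 is higher at 16 h for Nr4a1 and Egr3, and both channels are higher for Mcm7.

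The stretches of 250 bases before the start sites of the genes that moved together were read from RefSeq (build GRCm38.p6), which gave one for 26 of the 34 lower and 12 of the 15 higher genes. They are shown for genes of the early response (Ccl3, Nr4a1, Il6 and Rgs2) and for replication genes (Mcm3 and, of its 2 entries, the first of Mcm7) so that both groups can be read side by side. Each runs 5′ to 3′ towards the start site, and capitals mark letters that match the CRE core TGACG, the AP-1 motif TGANTCA, the NF-kappaB motif, the E2F motif (TTTCCCGC or TTTGGCGC) or CCAAT, on either strand.
Ccl3, chr11:83649379-83649628, minus strand: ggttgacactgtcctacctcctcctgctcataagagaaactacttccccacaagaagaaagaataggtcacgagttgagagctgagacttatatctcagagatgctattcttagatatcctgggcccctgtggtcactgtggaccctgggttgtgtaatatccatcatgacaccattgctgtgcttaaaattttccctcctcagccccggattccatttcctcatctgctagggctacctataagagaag
Nr4a1, chr15:101266596-101266845, plus strand: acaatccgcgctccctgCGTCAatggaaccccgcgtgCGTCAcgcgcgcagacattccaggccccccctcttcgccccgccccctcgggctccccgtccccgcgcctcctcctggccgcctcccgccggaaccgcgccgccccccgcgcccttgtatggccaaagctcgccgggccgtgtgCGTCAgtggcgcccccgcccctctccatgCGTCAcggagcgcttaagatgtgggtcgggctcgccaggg
Il6, chr5:30012864-30013113, plus strand: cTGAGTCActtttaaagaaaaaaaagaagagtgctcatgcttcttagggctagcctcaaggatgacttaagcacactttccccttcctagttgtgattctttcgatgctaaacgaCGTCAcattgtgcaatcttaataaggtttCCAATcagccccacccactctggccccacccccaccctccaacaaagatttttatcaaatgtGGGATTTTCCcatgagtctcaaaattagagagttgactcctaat
Rgs2, chr1:144004150-144004399, minus strand: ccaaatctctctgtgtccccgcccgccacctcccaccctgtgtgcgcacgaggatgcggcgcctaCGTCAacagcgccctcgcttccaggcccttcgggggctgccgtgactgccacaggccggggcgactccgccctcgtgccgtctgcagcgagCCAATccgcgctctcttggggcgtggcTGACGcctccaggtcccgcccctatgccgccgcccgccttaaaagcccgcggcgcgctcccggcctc
Mcm3, chr1:20820313-20820562, minus strand: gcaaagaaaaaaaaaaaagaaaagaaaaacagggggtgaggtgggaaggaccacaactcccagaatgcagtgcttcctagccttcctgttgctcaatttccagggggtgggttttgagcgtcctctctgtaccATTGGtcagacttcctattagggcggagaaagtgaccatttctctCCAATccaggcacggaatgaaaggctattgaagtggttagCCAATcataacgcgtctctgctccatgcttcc
Mcm7, chr5:138171884-138172133, minus strand: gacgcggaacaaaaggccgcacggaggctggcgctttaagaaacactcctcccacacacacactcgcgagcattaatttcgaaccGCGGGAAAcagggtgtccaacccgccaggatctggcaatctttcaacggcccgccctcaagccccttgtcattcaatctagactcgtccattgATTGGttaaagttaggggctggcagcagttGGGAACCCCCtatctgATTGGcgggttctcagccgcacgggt

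The CRE core, the letters bound by CREB family factors and part of the full CRE TGACGTCA, occurs 4 times in the Nr4a1 stretch, 2 times in that of Rgs2 and 1 time in that of Il6. It was found in 15 of the 26 lower and 3 of the 12 higher genes, in 17.8% of all 32851 stretches and in 28.7% of the 11200 tested genes with one; it was added to the search after these sequences had been read. The full CRE was in Maff alone among the called genes (1.55% of all stretches, 2.78% of tested genes). The NF-kappaB motif was in 6 of the 26 lower genes (Csf1, Ftl1, Hic1, Il6, Maff and Pdgfa) and 3 of the 12 higher (7.25% of all stretches, 10.4% of tested genes), AP-1 in 3 and 2 (6.75% and 6.05%). The CArG box, the motif of serum response factor, was in 0 of both (1.47% and 1.42%). E2F was in 1 lower gene, Pdgfa, and 1 higher, Mcm7 (1.30% and 2.66%). CCAAT occurs 3 times in the Mcm3 stretch and 2 times in that of Mcm7, and was in 12 lower and 7 higher genes (33.8% and 39.7%); TATAAA was in 0 lower and 2 higher (12.4% and 9.39%). The Ccl3 stretch holds none of the marked letters. A match is a description of the letters and no evidence of binding.

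The change over time in resting cells was also set against that in activated cells, as a difference of differences in the same fit, for which the resting arrays enter both comparisons. It passed for 983 genes (5.76%), 476 lower in resting cells (2.79%) and 507 higher (2.97%). For the early genes named next, the fall in resting cells was smaller than that in activated cells. Nr4a1 changed by -0.90 in resting and by -3.26 in activated cells (difference 2.36 ± 0.13, adjusted p = 6.04e-09). Ccl4 changed by -1.24 and -3.42 (2.18 ± 0.24, adjusted p = 2.74e-05), Egr3 by -1.26 and -2.99 (1.74 ± 0.18, adjusted p = 1.17e-05) and Ccl3 by -1.24 and -2.47 (1.23 ± 0.14, adjusted p = 2.57e-05). Il6 changed by -0.48 and -2.26 (1.78 ± 0.12, adjusted p = 5.02e-08). At 16 h the mean ratio of Ccl3 was 0.04 in resting and 0.21 in activated cells, and that of Ccl2 0.44 and 0.25. Of the immediate early list 18 of 31 genes and of the cytokine list 16 of 25 were higher in resting cells in this difference and 0 lower, and of the chemokines 9 were higher and 5 lower.

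In the other direction, the change over time of the ratio was lower in resting than in activated cells for 7 of 28 replication and 9 of 28 mitosis genes. It was higher for 0 (2.79% and 2.97% of all genes tested). Mcm7 rose by 0.30 in resting cells and by 0.60 in activated cells (difference -0.30 ± 0.07, adjusted p = 0.014), whereas for Mcm2 the difference of -0.13 ± 0.10 did not pass (adjusted p = 0.561). Slc6a9 changed by -0.56 in resting cells and by -0.17 in activated cells (difference -0.40 ± 0.10, adjusted p = 0.026). Serpina3g changed by 0.47 and 0.06 (difference 0.41 ± 0.10, adjusted p = 0.021), with activated ratios of 1.00 ± 0.09 at 2 h and 1.07 ± 0.15 at 16 h. For Ftl1 the difference was 0.02 ± 0.15 (adjusted p = 0.954), for Stmn1 -0.10 ± 0.12 (adjusted p = 0.720) and for Aldoa -0.17 ± 0.09 (adjusted p = 0.330).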

How the data were processed

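Of 16 Agilent two-colour arrays of mouse mast cells, the 8 of resting cells are described. The deposited files give linear intensities of each spot, read by Agilent Feature Extraction 9.1.3.1 per the file headers (version 9 per the submitters' processing notes). The log10 ratio deposited beside them is the software's processed Cy5 over Cy3, per the file headers, and equals the authors' value table at every spot (largest difference 0), each column of which has a median of 0. A genome build is not given in the sources used here. From the mean and local background intensities, limma 3.58.1 (R 4.3.3, data.table version 1.17.8) corrected background by normexp with an offset of 50, which understates changes of dim genes, and normalized each array by loess with weight 0 for the 1639 control and all outlier spots. Of 41174 probes, 25391 were kept, those above background (the scanner software's well-above flag, either channel) on 3 or more arrays in 1 of the groups. Probes were named by RefSeq accession (22951), current symbol (6659) or older symbol (3109), and 8455 kept the file's name. Each gene is its brightest probe. Of 25 other kept probes of 21 called genes, 19 had the same direction as the brightest. Channel levels are after Aquantile normalization between arrays.

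Group means of all 16 arrays were fitted with lmFit and eBayes, two-sided, with p-values adjusted by Benjamini-Hochberg over all genes tested. The procedure was tested on simulated data with independent noise for each gene and array. Such data cannot show how the calls behave where arrays are correlated, as they were here. Named genes are, first, up to 12 of the largest differences in each direction among calls that held in all 8 fits without 1 resting array. These were 12 lower genes and the only 3 higher. Added were up to 4 called members of each of 30 gene lists, and genes fixed by name (Havcr2, Ccl2, Ccl3, Ccl4, Ccl7, Egr1, Egr3, Nr4a1, Fos, Cma1, Fcer1a, Kit, Rps23, Arpc1b and Tmsb4x). Others in the text were chosen after their values were seen. Genes and lists were chosen with earlier results of these data known. Alternatives changed background correction, normalization, filter, probe choice, the arrays in the fit, weights and blocks.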

Additional observations from a re-analysis of the deposited data

Results flagged for a closer look

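Of 61 groups of 4 arrays examined for single distant values, 2 had one, and chance gives about 1 in 20. Kit had a ratio of 0.87 on 16 h replicate 3, where the other 3 arrays at 16 h lay between 0.18 and 0.27. Rps23 had 1.17 on 2 h replicate 3, where the others lay between 0.87 and 0.92. Both arrays are among the 3 that stood apart.

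The change from 2 h to 16 h differed between resting and activated cells, by limma's test of the difference itself, for 16 named genes. The value in resting cells minus that in activated cells was 1.74 for Egr3, 1.23 for Ccl3, 2.18 for Ccl4, 2.36 for Nr4a1, 1.36 for Ccl2, 1.21 for Ccl7, 1.49 for Egr1 and 1.07 for Maff. It was 1.16 for Plk3, 0.69 for Fst, 0.36 for Rgs2, 0.91 for Csf1 and 1.78 for Il6. The fall of the Egr1 ratio in resting cells did not itself pass (adjusted p = 0.103). Fst in resting cells was not above background at 16 h, so its value is not a measured difference. The value in resting minus activated cells was 0.41 for Serpina3g, -0.40 for Slc6a9 and -0.30 for Mcm7.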

How the results depend on the processing

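A change of sign in a gene that was not called was not counted as a reversal. Leaving out arrays could not change the direction of a called gene, given the lack of overlap. The 49 genes called between 2 h and 16 h kept their direction in every setting run. Their number, 34 lower and 15 higher, was within 1.5 times of this with a normexp offset of 16 (35), the background filter on both channels (49), no filter on dim probes (45) and the mean of a gene's probes (55). It was 77 without background correction, 299 with median centring in place of loess (80 lower and 219 higher, so 26.8% lower in place of 69.4%, with 23 of the 23 called named genes kept), 19 with Agilent's processed signals (16 of the 49 kept), 348 with ratios scaled to one spread (177 lower), 8 in a fit of the 8 resting arrays alone, 428 with array weights (199 lower) and 29 with the slide as a block (26 of the 49 kept). With that block the calls of Mcm2, Mcm3, Ccl7, Il6, Maff, Rgs16, Calca, Trib2 and Donson were lost (adjusted p = 0.0739, 0.0929, 0.0929, 0.0785, 0.0929, 0.0797, 0.0601, 0.0596 and 0.0505). It was 7 without the 3 arrays that stood apart, a setting chosen after seeing the correlations between arrays. Leaving out 1 resting array gave 23 (16 h replicate 1) to 1957 (2 h replicate 3) genes. The fit of the 8 resting arrays alone kept 8 of the 23 called named genes: Egr3, Ccl3, Nr4a1, Ftl2-ps, Ccl2, Fst, Il6 and Serpina3g. The other 15 were lost, among them Ccl4 (adjusted p = 0.0745), Slc6a9 (0.0611), Plk3 (0.0611), Rgs2 (0.0937), Csf1 (0.132), Stmn1 (0.191) and Mcm7 (0.217). Whether same-numbered arrays of the 2 times pair is not stated in the labels. The correlations of their deviations from the group means were -0.45, 0.23, 0.64 and -0.04 for replicates 1 to 4, which does not settle it. With the replicate block the count was 303 (161 lower), and 49 of the 49 calls were kept. The difference from activated cells was called for 983 genes, for 1672 with array weights, and for 745 to 1156 when 1 array was left out. A block for the scan day was not run, since all arrays share a day. The cause of these changes was not tested. Dim genes such as Fst at 16 h are limited by signal over background.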

Other observations

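The 6 largest differences that were not called belong to genes whose ratios were uneven between replicates. Lars2, a mitochondrial leucyl-tRNA synthetase, had ratios of 0.63, -0.05, 2.26 and 0.51 at 2 h and of 3.08, 2.73 and 0.66 on replicates 1, 3 and 4 at 16 h (difference 1.32, limma adjusted p = 0.161). Pigt had 0.87, -0.46, 2.75 and 0.32 at 2 h and 2.65, 1.39, 2.85 and 1.09 at 16 h (1.13, adjusted p = 0.219). Tatdn2 had 1.13, -0.19, 0.16 and -0.24 at 2 h and -2.04, -0.22, -1.92 and -0.17 at 16 h (-1.30, adjusted p = 0.0986). Grn, encoding progranulin, Lta4h, of leukotriene B4 synthesis, and Mpst had differences of 0.89, 0.83 and -0.83 (adjusted p = 0.183, 0.104 and 0.110). In all 6 the ratios furthest from 0 at 16 h were those of replicates 1 and 3, which are among the arrays that stood apart.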
